A study of Mus musculus with 24 samples.

Results

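The mechanosensitive and calcium channels examined in these cartilage explants were 10 genes named by symbol: Piezo1, Piezo2, Trpv4, Trpm4, Trpm7, Trpc1, Pkd1, Pkd2, P2rx7 and Kcnk2. All 10 were found among the 52178 genes of the count table, and all 10 passed the filter on low counts, which left 21283 genes. They were measured in 6 groups of wild-type C57/BL6 mouse cartilage kept in culture. Hip caps, the articular cartilage of the femoral head, came from 4-week-old male mice and 1 library held both hip caps (2) of 1 mouse. Metatarsals, a model of growth plate cartilage, came from embryos at day 15 (E15) and 1 library held 6 pooled bones. Each tissue was cultured for 24 hours, placed under a hydrostatic pressure of 0 MPa (control), 5 MPa (termed physiological by the study) or 50 MPa (termed injurious) for 1 hour, and cultured for a further 24 hours before RNA was extracted. The sample labels write the pressures in mPa, whereas the methods give MPa, the unit used here. Age, sex of the donors, culture medium and number of pooled pieces go with the tissue, so a difference between hip caps and metatarsals cannot be told apart from those.

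Chondrocytes are surrounded by a stiff, charged matrix and sense load partly through ion channels that let calcium into the cell. Piezo1 and Piezo2 are large channels that open when the membrane is stretched, and Trpv4 is a calcium-permeable channel of the transient receptor potential (TRP) family that responds to osmotic swelling and moderate strain and whose mutations cause skeletal dysplasias. Trpc1 is a TRP subunit linked to calcium entry, Trpm7 is a magnesium- and calcium-permeable channel fused to a kinase, and Trpm4 is opened by intracellular calcium and carries sodium rather than calcium. Pkd1 (polycystin 1) and Pkd2 (polycystin 2, itself a TRP channel) form a complex at the primary cilium, P2rx7 is an ATP-gated cation channel best known from macrophages and osteoclasts, and Kcnk2 (TREK-1) is a potassium channel opened by membrane stretch.

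The sequence upstream of the members' transcription starts was read from RefSeq (GRCm38.p6), which held entries for 8 of the 10 genes and for neither Piezo2 nor Trpm4. The 250 bases before the first listed start are printed 5′ to 3′ in the direction of transcription for 3 genes that were higher in hip caps (Trpv4, P2rx7 and Piezo1), 1 that was lower (Trpc1) and 1 that did not differ (Pkd2), so that they can be set against the values below. Capitals mark GC boxes (GGGCGG on either strand) and AP-1 elements (TGANTCA, which reads alike on both strands). The windows lie at chr5:114658422-114658671 (Trpv4, minus strand), chr5:122643677-122643926 (P2rx7, plus strand), chr8:122551330-122551579 (Piezo1, minus strand), chr9:95750349-95750598 (Trpc1, minus strand) and chr5:104459207-104459456 (Pkd2, plus strand).
Trpv4: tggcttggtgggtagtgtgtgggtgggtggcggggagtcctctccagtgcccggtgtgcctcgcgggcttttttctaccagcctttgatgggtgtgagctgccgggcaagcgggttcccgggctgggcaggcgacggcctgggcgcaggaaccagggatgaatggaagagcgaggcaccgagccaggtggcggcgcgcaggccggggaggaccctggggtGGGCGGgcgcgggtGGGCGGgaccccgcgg
P2rx7: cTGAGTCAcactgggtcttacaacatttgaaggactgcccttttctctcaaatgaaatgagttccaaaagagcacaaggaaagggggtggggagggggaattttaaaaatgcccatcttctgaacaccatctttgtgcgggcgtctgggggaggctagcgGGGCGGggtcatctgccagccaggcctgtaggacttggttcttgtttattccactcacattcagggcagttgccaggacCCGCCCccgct
Piezo1: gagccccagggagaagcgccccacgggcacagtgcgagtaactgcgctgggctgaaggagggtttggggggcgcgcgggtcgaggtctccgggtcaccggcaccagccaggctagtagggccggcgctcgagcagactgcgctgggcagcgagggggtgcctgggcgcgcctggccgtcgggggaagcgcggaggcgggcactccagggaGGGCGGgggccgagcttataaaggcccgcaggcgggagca
Trpc1: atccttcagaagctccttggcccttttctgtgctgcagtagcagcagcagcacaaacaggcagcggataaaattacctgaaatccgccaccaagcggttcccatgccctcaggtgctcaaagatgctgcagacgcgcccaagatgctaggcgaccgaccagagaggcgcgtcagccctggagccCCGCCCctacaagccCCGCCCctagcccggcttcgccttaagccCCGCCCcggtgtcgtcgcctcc
Pkd2: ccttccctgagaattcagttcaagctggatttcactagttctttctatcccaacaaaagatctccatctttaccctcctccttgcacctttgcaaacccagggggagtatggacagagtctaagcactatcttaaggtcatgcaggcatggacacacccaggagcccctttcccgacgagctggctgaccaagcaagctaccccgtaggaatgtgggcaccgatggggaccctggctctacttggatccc

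The 8 genes had 12 windows, as P2rx7 has 2 listed starts and Kcnk2 4. GC boxes were present in 6 of the 12 windows (1 each of Piezo1, Trpv4, Trpc1, Pkd1, P2rx7 and Kcnk2), compared with 32.7% of 32851 mouse promoter windows of the same length. Of the members higher in metatarsals only Trpc1, with 3 GC boxes, and Trpm7, with none, had an entry. An AP-1 element, the site of Fos and Jun dimers, was found in 2 of the 12 windows, the first of P2rx7 and the second of Kcnk2, against 6.75% of all promoters. The TEAD core (GGAATG) was found in 2 windows, that of Pkd2 and the first of Kcnk2, against 12.6% of all promoters. Neither the SOX core (ACAATG, 10.7% of all promoters), the NFAT core (GGAAAA, 20.4%) nor the cAMP response element (TGACGTCA, 1.55%) was present in these windows. All motifs were searched on both strands, and a match is a description of the letters only. The window of Piezo1 was 74.0% G and C with 26 CpG dinucleotides, that of Trpv4 72.0% with 22, and that of Pkd2 52.8% with 4, whereas the median of all promoters was 52.4% with 6.

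Of the members, 3 lie on chromosome 5 (Trpv4, Pkd2 and P2rx7) and the others on chromosomes 1, 2, 7, 8, 9, 17 and 18. For Piezo1, 23.3% of the 31-base words of its transcripts were shared with other annotated transcripts, and a transcript of the same strand (Gm26497) overlaps it, so its counts could be split with that transcript. The shared portion was 10.6% for Kcnk2, 5.09% for Pkd1 and at most 1.94% for each of the other genes. On the opposite strand Piezo1 overlaps Ctu2 and Pkd1 overlaps Tsc2, and reads of such a pair cannot be told apart in libraries without strand.

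Total counts ranged from 4185241 to 25104240 over the 24 libraries (median 13272842). Libraries that the study had set aside were left out of the tests here too. These were hip cap control library 4 and hip cap 50 MPa library 2, which left 3 libraries in each of those groups, 4 in each of the others and 22 in all. According to the labels 6 libraries were unstranded, namely hip cap control 3, all 4 hip caps at 50 MPa and metatarsal 50 MPa library 4. The sequencing run was read from the colour strip of the study's clustering heat map, as the labels do not give it, and is uncertain. By it the hip cap controls are split over both runs (3 and 1), all hip caps at 5 MPa are on the second and all hip caps at 50 MPa on the first. Within hip caps the run therefore cannot be told apart from 5 MPa among the libraries tested. Run and library type were both terms of the fit. As the run is split within a tested group only in metatarsals, its term rests on them. By the weights of the design, metatarsal control 1 entered hip caps at 5 against 0 MPa with 0.56. Metatarsal 50 MPa library 4 entered it with 0.44, and no hip cap exceeded 0.44 in size. In hip caps at 50 against 5 MPa the latter library had -0.68. These values are thus not measured in hip caps alone. Levels are given as CPM, the share of a library's counts after scaling by trimmed means of M values (TMM). Differences are log2 fold changes of edgeR's quasi-likelihood fit over all genes with their standard error (SE), two-sided, with Benjamini-Hochberg adjusted p-values over the 21283 genes and a threshold of 0.05.

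The order of the members differed between the tissues when levels were set per kilobase of the longest coding transcript. In hip caps Trpv4 was the most abundant, with a median of 53.4 CPM per kilobase (range 26.0 to 73.9 over 10 libraries), and it lay above Pkd2, the next gene, in 10 of 10 libraries. Pkd2 (30.7), Piezo1 (29.2) and Pkd1 (25.7 CPM per kilobase) followed, and these neighbours did not keep their order in every library, with each above the next in 7 of 10. Trpm7 (13.3), Trpm4 (4.54), P2rx7 (3.56) and Kcnk2 (3.24 CPM per kilobase) were lower, and Trpc1 (1.48) and Piezo2 (1.40) were the least abundant and could not be separated. In metatarsals Pkd2 led with a median of 29.8 CPM per kilobase (range 25.8 to 34.1 over 12 libraries), ahead of Pkd1 (21.8), Trpm7 (17.7) and Piezo1 (13.6). Trpv4 was only the seventh there, at 5.13 CPM per kilobase (3.68 to 10.1), below Trpm4 (7.91) and Piezo2 (7.02), and Kcnk2 (0.789) and P2rx7 (0.621) were the lowest. Transcript length differs between isoforms, and the deposited counts do not show which isoform was present.

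**Figure D1:**
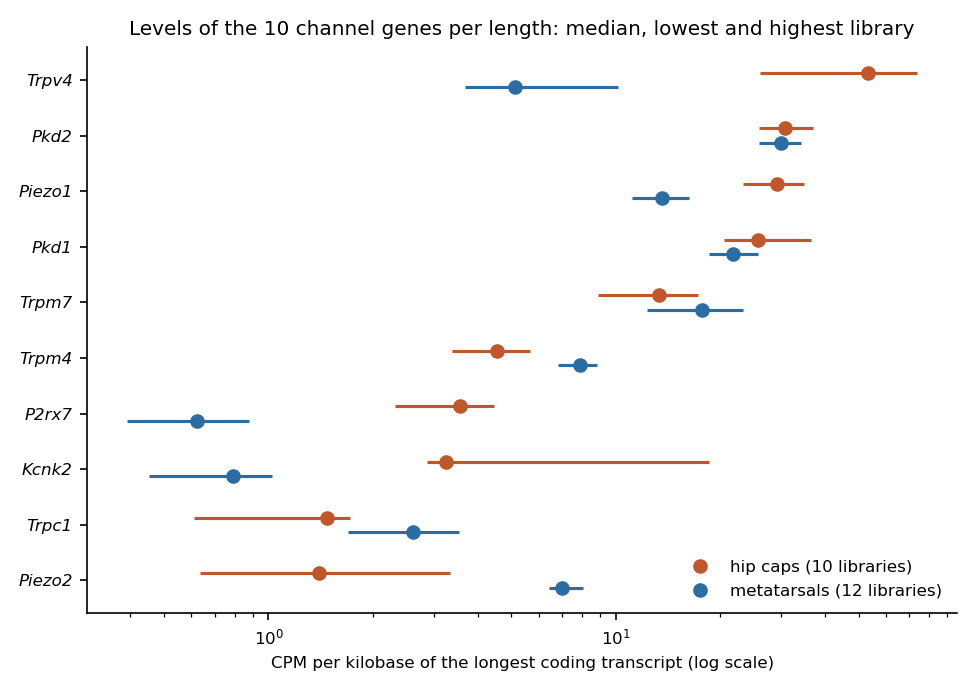
Levels of the 10 channel genes in CPM per kilobase (log scale); points are medians and lines run from the lowest to the highest library, for 10 hip cap and 12 metatarsal libraries. Trpv4 is the highest gene in hip caps and the seventh in metatarsals, whereas Pkd2 and Pkd1 have overlapping ranges in the tissues.

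Most of the members differed between articular and growth plate cartilage, in both directions. In controls 8 of 10 members passed the threshold, where 29.9% of all genes did, with 5 higher (14.1% of all genes) and 3 lower (15.9%) in hip caps. At 5 MPa 7 members passed (37.9% of all genes), 4 higher (18.8%) and 3 lower (19.1%), and at 50 MPa again 7 (19.7%), 4 higher (10.1%) and 3 lower (9.58%). The CPM of the tissues did not overlap for 6, 8 and 7 members at 0, 5 and 50 MPa, against 42.4%, 40.8% and 39.9% of all genes. The comparison at 5 MPa rests on 4 against 4 libraries that are all stranded and of the same run, so it needs neither batch term. The control comparison leans on metatarsal control library 1 and the comparison at 50 MPa on metatarsal library 4, the only metatarsals that share a run with the hip caps in those groups. Without metatarsal control 1 the control count was 4 (Piezo1, Piezo2, Trpv4 and P2rx7), where 12% of all genes passed, and without metatarsal 50 MPa library 4 the count at 50 MPa was 4 (Trpv4, Trpc1, P2rx7 and Kcnk2), where 5.01% did. With all 24 libraries it was also 4 (8.41% of all genes). Scaling matters for the split. On library sizes alone, without TMM, the median of all genes moved to -0.97, -0.70 and -0.90 on the log2 scale at 0, 5 and 50 MPa. The called members were then 3 higher and 5 lower, 4 higher and 5 lower, and 3 higher and 5 lower. Of all genes 42.0%, 47.7% and 32.2% were called in this way.

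**Figure D2:**
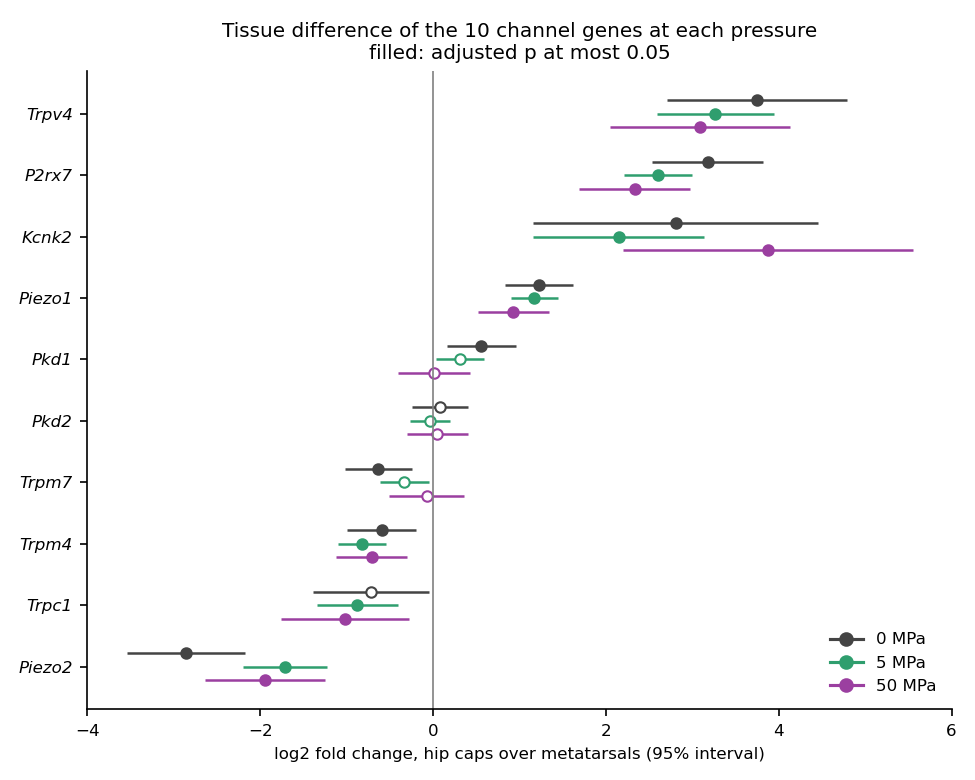
Log2 fold change of hip caps over metatarsals for each channel gene at 0, 5 and 50 MPa, with the 95% interval of the fit; filled points passed an adjusted p of 0.05. Trpv4, P2rx7, Kcnk2 and Piezo1 lie to the right and Piezo2, Trpm4 and Trpc1 to the left at every pressure, except that on library sizes alone Piezo1 at 50 MPa was -0.06.

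Trpv4 had the highest fold difference of the members at 0 and 5 MPa, on the hip cap side. It was 239, 157 and 236 CPM in hip cap controls, 169, 185, 84.1 and 212 CPM at 5 MPa and 175, 143 and 87.0 CPM at 50 MPa. In metatarsals it was 11.9, 14.9, 32.7 and 21 CPM in controls, 13.8, 16.1, 14.1 and 23.6 CPM at 5 MPa and 20.1, 17.1, 13.9 and 17.9 CPM at 50 MPa. The lowest hip cap library was thus above the highest metatarsal library, with a single hip cap at each of 5 and 50 MPa well under the others. The log2 fold change was 3.75 (SE 0.49, edgeR adjusted p = 1.69e-05) in controls, 3.27 (SE 0.32, adjusted p = 2.43e-07) at 5 MPa and 3.09 (SE 0.49, adjusted p = 1.74e-04) at 50 MPa, a 13.5-, 9.62- and 8.51-fold difference.

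P2rx7, the ATP-gated channel, was low in both tissues and higher in hip caps. The hip cap controls had 17.4, 18.9 and 22 CPM, those at 5 MPa 19.5, 16.3, 16.2 and 17.7 CPM and those at 50 MPa 16.5, 21.6 and 11.5 CPM. The metatarsal controls had 2.11, 3.05, 2.92 and 1.93 CPM, those at 5 MPa 2.29, 3.08, 3.24 and 2.89 CPM and those at 50 MPa 3.24, 3.74, 4.33 and 3.28 CPM. No hip cap library overlapped a metatarsal library. The log2 fold change was 3.18 (SE 0.31, adjusted p = 1.45e-07), 2.60 (SE 0.19, adjusted p = 6.85e-10) and 2.33 (SE 0.31, adjusted p = 1.02e-05) at 0, 5 and 50 MPa.

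Kcnk2, the stretch-opened potassium channel, was also higher in hip caps but with a wide spread. It was 28.3, 21.2 and 11.6 CPM in hip cap controls, 10.2, 11.5, 11.5 and 20.1 CPM at 5 MPa and 11.2, 11.5 and 66.2 CPM at 50 MPa, where hip cap 50 MPa library 4 stood far above the others. All 12 metatarsal libraries lay between 1.62 and 3.66 CPM. The log2 fold change was 2.81 (SE 0.78, adjusted p = 0.0118), 2.15 (SE 0.47, adjusted p = 1.47e-03) and 3.88 (SE 0.79, adjusted p = 1.86e-03). Without that single library the value at 50 MPa was 2.57, and without metatarsal control library 1 the value at 0 MPa was 1.95 and lost its call.

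Piezo1 was 1.90- to 2.34-fold higher in hip caps, with a CV of 12.8% over the 10 hip caps and 12.1% over the 12 metatarsals. It was 261, 200.2 and 287 CPM in hip cap controls, 238, 221, 265 and 241 CPM at 5 MPa and 216, 192 and 253 CPM at 50 MPa. The metatarsals had 91.7, 113, 131 and 134 CPM in controls, 107, 122, 109 and 91.9 CPM at 5 MPa and 119, 109.9, 100.5 and 121 CPM at 50 MPa. The groups did not overlap at any pressure. The log2 fold change was 1.23 (SE 0.19, adjusted p = 4.37e-05), 1.17 (SE 0.13, adjusted p = 3.56e-07) and 0.93 (SE 0.20, adjusted p = 1.61e-03), but on library sizes alone it was 0.31 in controls and -0.06 at 50 MPa, neither past the threshold, and without metatarsal 50 MPa library 4 or with all 24 libraries the call at 50 MPa was lost.

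Piezo2 went the other way and was the member with the strongest excess in metatarsals. It was 6.79, 12.3 and 10.4 CPM in hip cap controls, 22.3, 16.5, 35.7 and 13.6 CPM at 5 MPa and 21, 22.9 and 12.1 CPM at 50 MPa. In metatarsals it was 74.6, 72.3, 86.6 and 76.2 CPM in controls, 72.1, 68.8, 70.2 and 78.5 CPM at 5 MPa and 82.0, 84.1, 76.0 and 71.6 CPM at 50 MPa. The lowest metatarsal was thus well above the highest hip cap, and the metatarsals varied little (CV 7.46% over 12 libraries) whereas the hip caps varied widely (48.3% over 10). The log2 fold change was -2.86 (SE 0.33, adjusted p = 2.12e-06), -1.72 (SE 0.23, adjusted p = 6.84e-06) and -1.94 (SE 0.33, adjusted p = 2.49e-04) at 0, 5 and 50 MPa, and the call at 50 MPa was lost without metatarsal 50 MPa library 4 and with all 24 libraries.

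The balance of the Piezo channels differed between the tissues. Per kilobase of the longest coding transcript, Piezo1 exceeded Piezo2 in every library. The ratio was 9.69- to 50.1-fold in hip caps (median 19.4, n = 10) and 1.53- to 2.32-fold in metatarsals (median 1.95, n = 12). The longest transcripts have 8219 bases for Piezo1 and 10724 for Piezo2. The median coding transcripts have 8217.5 and 5162.5 bases, so the order of the genes in metatarsals depends on the length chosen. The difference between the tissues does not, as the same lengths were used in both. The log2 ratio was 5.08 ± 0.62 (SD, n = 3) in hip cap and 0.97 ± 0.22 (SD, n = 4) in metatarsal controls, and 3.94 ± 0.53 against 0.95 ± 0.25 at 5 MPa (n = 4 each). At each pressure the groups did not overlap. This follows from Piezo1 and Piezo2, which each separated the tissues, in opposite directions. The exact permutation p of 0.0286 (two-sided), the smallest these group sizes allow, was fixed by that and is no further test. It takes no account of run or library type. Since both genes are counted in the same library, this ratio does not depend on the scaling.

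**Figure D3:**
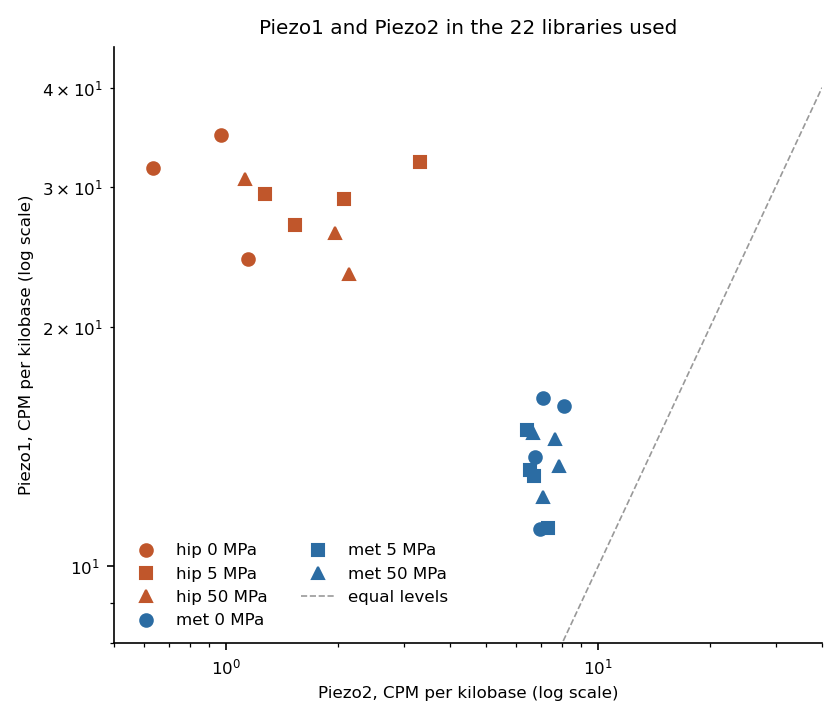
Piezo1 against Piezo2 in the 22 libraries, both in CPM per kilobase on log scales; colour gives the tissue, shape the pressure, and the broken line equal levels. All libraries lie above the line, the 12 metatarsals close together at 1.53- to 2.32-fold and the 10 hip caps spread along the Piezo2 axis. Lengths are those of the longest coding transcripts, and the place of the metatarsals against the line depends on that choice.

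Trpm4, the calcium-activated sodium channel, was lower in hip caps, at 23.9, 14.3 and 23.7 CPM in controls, 22, 18.2, 15.9 and 19.9 CPM at 5 MPa and 22.4, 17.9 and 18.6 CPM at 50 MPa. All 12 metatarsals lay between 28.9 and 37.3 CPM, above every hip cap. The log2 fold change was -0.60 (SE 0.19, adjusted p = 0.0217), -0.83 (SE 0.13, adjusted p = 3.93e-05) and -0.71 (SE 0.20, adjusted p = 0.0133). The control call was lost in 4 of the 22 fits that each left out a library. Trpc1 was scarce, at 2.79 to 7.81 CPM in hip caps and 7.72 to 16.1 CPM in metatarsals, with a log2 fold change of -0.88 (SE 0.22, adjusted p = 3.69e-03) at 5 MPa. Its value at 50 MPa passed narrowly (-1.02, SE 0.36, adjusted p = 0.0487), in only 3 of the 22 fits that left out a library, and in controls it was -0.72 (SE 0.32, adjusted p = 0.0995), where the groups overlapped through a metatarsal control at 7.72 CPM. Trpm7, the channel with a kinase, passed in controls alone (-0.63, SE 0.19, adjusted p = 0.0138), where the groups overlapped (63.2 to 112 CPM in hip caps and 105.7 to 165 CPM in metatarsals) and the call was lost without hip cap control 1 or metatarsal control 1. At 5 and 50 MPa it was -0.33 (adjusted p = 0.0621) and -0.08 (adjusted p = 0.860), and whether the tissue difference changed with pressure is given by the interaction below.

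The polycystins were the members with the smallest tissue differences. Pkd2 lay between 134.5 and 192 CPM in the 10 hip caps and between 134.5 and 178 CPM in the 12 metatarsals, and the tissues overlapped at every pressure. Its log2 fold change was 0.08, -0.04 and 0.05 at 0, 5 and 50 MPa, with 95% intervals of -0.24 to 0.41, -0.27 to 0.20 and -0.30 to 0.40, so a difference of 1.5-fold or more lay outside each interval in TMM-scaled values, while on library sizes alone it was -0.85 in controls and -0.87 at 50 MPa and moved with the median of all genes. Pkd1 was 442, 347 and 518 CPM in hip cap controls against 271, 277, 334 and 365 CPM in metatarsals, a log2 fold change of 0.56 (SE 0.19, adjusted p = 0.0315) that was -0.37 on library sizes alone. At 5 MPa the groups did not overlap (349 to 387 against 266 to 311 CPM) yet the value of 0.31 (SE 0.14, adjusted p = 0.0765) missed the threshold and was -0.30 on library sizes alone, and at 50 MPa it was 0.01 (SE 0.20), or -0.94 on library sizes alone.

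**Figure D4:**
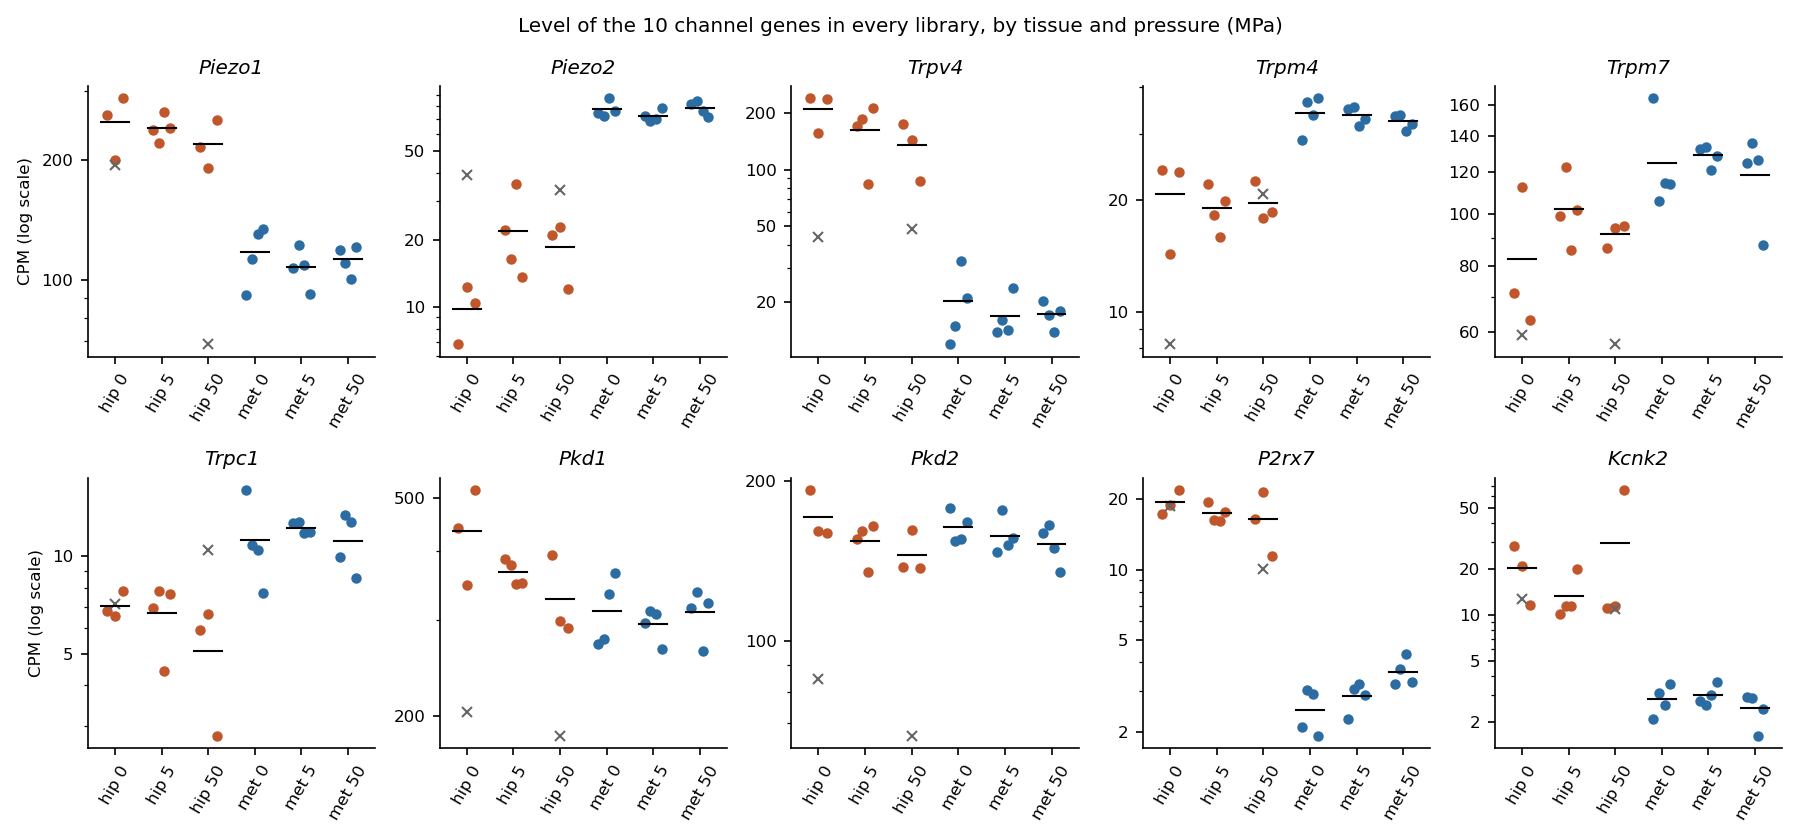
CPM of each of the 10 channel genes in every library by tissue and pressure (MPa), on log axes with a range of their own; filled points are the 22 libraries tested, bars their group means and crosses the 2 hip cap libraries left out. Trpv4, P2rx7, Kcnk2 and Piezo1 are higher in the tested hip caps and Piezo2 and Trpm4 in metatarsals with no overlap of tissues, and the crosses lie low for Trpv4 and Pkd2.

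The RNA of cell type markers differed between the tissues too, and the part of cell composition in these differences was not tested. In bulk RNA, fewer cells of a type and less RNA per cell cannot be told apart. Beside the counts of markers below, 14.1%, 18.8% and 10.1% of all genes were higher in hip caps at 0, 5 and 50 MPa. The shares lower were 15.9%, 19.1% and 9.58%. All 16 chondrocyte markers were detected in both tissues, and their sum ran from 25220 to 87240 CPM in hip caps and from 2252 to 5829 CPM in metatarsals, with 16 of 16 higher in hip caps at 5 MPa. Skeletal muscle markers (18) summed to 14.9 to 59.5 CPM in hip caps and 558 to 2974 CPM in metatarsals. Markers of the perichondrium and fibroblasts (14) summed to 2024 to 5261 CPM in hip caps and 4237 to 6527 CPM in metatarsals, the side on which Piezo2, Trpm4 and Trpc1 were higher. Osteoclast markers (10) summed to 369 to 1818 CPM in hip caps and 52.2 to 102 CPM in metatarsals, and macrophage markers (12) to 119.6 to 771 and 76.9 to 146 CPM. P2rx7 was higher in hip caps too. Of the osteoclast markers tested (9), 4, 9 and 7 were higher and 0 lower in hip caps at 0, 5 and 50 MPa. Of the 12 macrophage markers, 1 was higher and 1 lower in controls (median -0.55), 4 were higher and 0 lower at 5 MPa (median 0.47) and 2 higher and 1 lower at 50 MPa (median 0.54), so they did not all lie on the side of P2rx7. Markers of neurons and Schwann cells (17), cells in which Piezo2 is well known, summed to 26.8 to 66.8 CPM in hip caps and 24.8 to 41.7 CPM in metatarsals, so the sums overlapped, but 9 of the 14 tested were lower and 3 higher in hip caps at 5 MPa, and 4 of the 17 were at 0 in hip cap controls.

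No member passed the threshold for pressure in hip caps here. The study, which used DESeq2 with terms for run and library type, reports Piezo2 higher and Trpm4 lower at both pressures. It also reports P2rx7 lower at 5 MPa only, and Piezo1 and Trpv4 unchanged. The reason for the difference from the study was not tested. On library sizes alone the median of all genes moved to 0.52 at 5 MPa and 0.25 at 50 MPa in hip caps, and to 0.24 and 0.26 in metatarsals, so the signs of small pressure values depend on the scaling, as those of Piezo1, Trpm4, Pkd1 and Pkd2 in hip caps at 5 MPa did. At 5 against 0 MPa 0 of 10 members were called by edgeR (0.0188% of all genes were), with 2 members at an unadjusted p under 0.05 against 14.8% of all genes. DESeq2 called 0 of them and 2.71% of all genes. Piezo2 had the highest value, 1.01 (SE 0.37, 95% interval 0.23 to 1.80, adjusted p = 0.229), and the 4 libraries at 5 MPa (13.6 to 35.7 CPM) were all above the 3 controls (6.79 to 12.3 CPM), as in 16.2% of all genes whose groups did not overlap in either direction. This rests on controls of the other run: against hip cap control 4, the control of the same run that was left out, the log2 ratio of means was -0.88, as that library held 39.4 CPM. With all 24 libraries the value was -0.09 (adjusted p = 0.938), a fit that adds both left-out libraries. Without the run term Piezo2 was called, at 1.11 (adjusted p = 0.0298) with library type alone, where 5.46% of all genes were called, and at 1.14 (adjusted p = 0.0125) with no batch term, where 9.52% were. Trpm7 was 0.47 (SE 0.22, adjusted p = 0.327) and Trpv4 -0.86 (SE 0.50, adjusted p = 0.428), and the remaining members lay between -0.58 and 0.07.

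At 50 against 0 MPa 0 of 10 members passed in hip caps, where 5.18% of all genes did, although 5 of them had an unadjusted p under 0.05 (22.6% of all genes). For 0 members the groups did not overlap (15.8% of all genes). Trpm7 was 0.68 (SE 0.20, 95% interval 0.25 to 1.10, adjusted p = 0.0570), at 86.5, 94.2 and 95 CPM against 70.9, 112 and 63.2 CPM, so the groups overlapped. Pkd1 was -0.65 (SE 0.20, 95% interval -1.06 to -0.24, adjusted p = 0.0578), at 394, 299 and 290.3 CPM against 442, 347 and 518 CPM, which overlapped as well. The control that counts most in this comparison is hip cap control 3, the only unstranded control tested, and against it alone the log2 ratio of means was 0.54 for Trpm7 and -0.66 for Pkd1. DESeq2 called both genes, as did the filter that asked for 10 counts in every library. Those settings called 11.5% and 15.0% of all genes. Without hip cap 5 MPa library 3, which is in neither group, 3 members passed, namely Piezo2, Trpm7 and Pkd1 (8.78% of all genes did), and without hip cap control 2 both Trpm7 and Pkd1 did (10.9% of all genes).

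The other members had values in the same range at 50 MPa. Piezo2 was 0.93 (SE 0.36, adjusted p = 0.132), Piezo1 -0.45 (SE 0.19, adjusted p = 0.159) and Trpv4 -0.97 (SE 0.44, adjusted p = 0.199). Pkd2 was -0.08 (95% interval -0.42 to 0.26), Trpm4 -0.26 (-0.68 to 0.16) and P2rx7 -0.36 (-0.91 to 0.19). Kcnk2 was 0.98 with an interval from -0.58 to 2.55, and without hip cap 50 MPa library 4 it was -0.32, so its sign was set by 1 library. Between 50 and 5 MPa 0 members were called (0% of all genes), 0 had an unadjusted p under 0.05 (4.78%) and 0 had groups that did not overlap (13.2%).

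**Figure D5:**
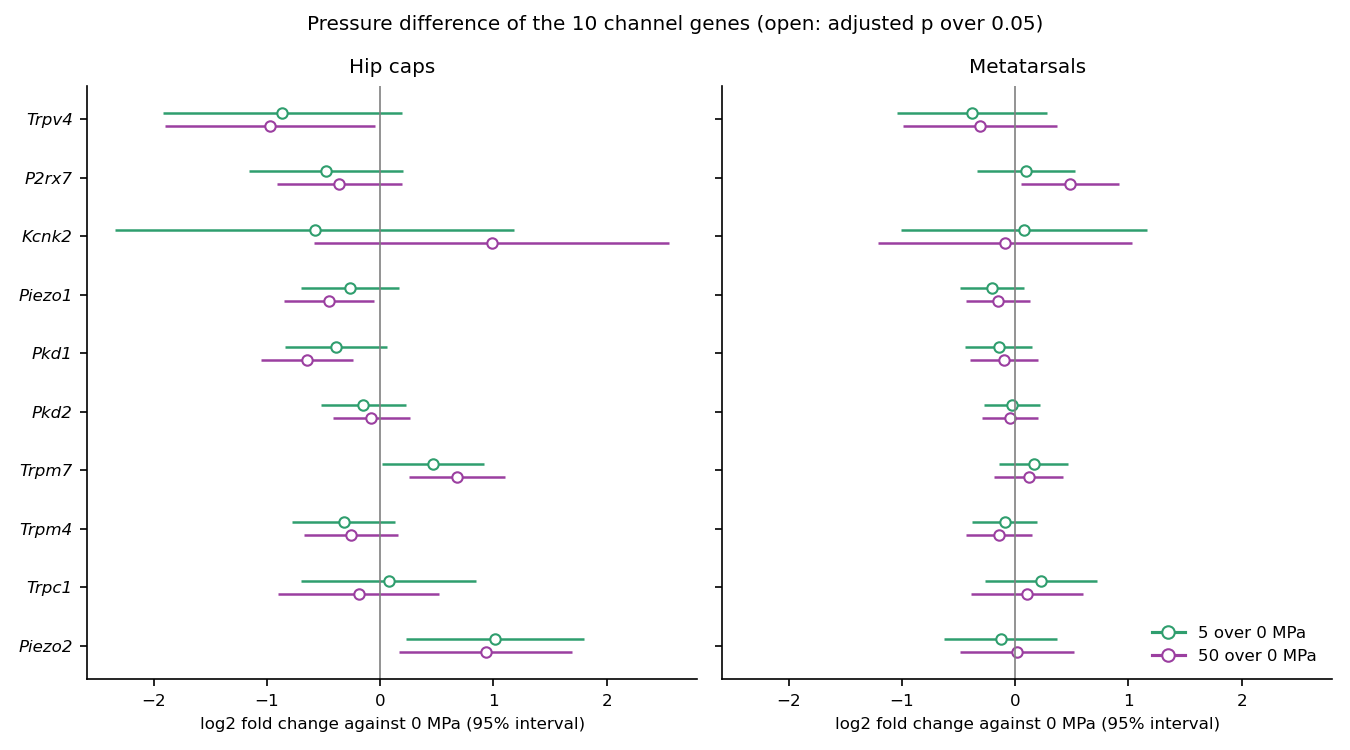
Log2 fold change against 0 MPa for each channel gene at 5 and 50 MPa, in hip caps (left) and metatarsals (right), with 95% intervals of the fit; open points did not pass an adjusted p of 0.05. No point is filled, and the intervals are wider in hip caps for every gene.

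The marker sums of the hip cap libraries differed within groups, and Trpv4 and Piezo2 moved with them in some libraries and not in others. Hip cap 5 MPa library 3 had the lowest Trpv4 (84.1 CPM) and the highest Piezo2 (35.7 CPM) of its group, and it also had the lowest chondrocyte sum (24460 CPM, against 40060 to 57650 in the other 3) and the highest macrophage sum (748 CPM, against 126 to 224). Hip cap control 4, which was left out, showed the same with 43.7 CPM of Trpv4, 39.4 CPM of Piezo2, a chondrocyte sum of 10360 CPM and a macrophage sum of 822 CPM, these sums being scaled over all 24 libraries. Hip cap 50 MPa library 4 had the lowest Trpv4 (87 CPM) but also the lowest Piezo2 (12.1 CPM) and macrophage sum (182 CPM) of the 3 tested in its group, with a chondrocyte sum of 37460 CPM between the other two. Hip cap 50 MPa library 2, which was left out, had 48.5 CPM of Trpv4 with a low chondrocyte sum (15890 CPM) and a low macrophage sum (112 CPM). The part of cell composition in the pressure values was not tested. Across the groups the chondrocyte sum ran from 54900 to 87240 CPM in the controls tested, 25220 to 59400 CPM at 5 MPa and 36750 to 42400 CPM at 50 MPa.

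In metatarsals the members differed little with pressure, and the spread was narrower. At 5 against 0 MPa 0 members were called (0% of all genes) and 0 had an unadjusted p under 0.05 (3.24% of all genes), 0 had groups that did not overlap (2.88%), with values from -0.38 (Trpv4) to 0.23 (Trpc1). At 50 against 0 MPa 0 members were called (0% of all genes) and 1 had an unadjusted p under 0.05 (3.89%). DESeq2 called 0 members in either comparison (0.0611% of all genes at 5 and 0.0423% at 50 against 0 MPa). The single gene was P2rx7, at 3.24, 3.74, 4.33 and 3.28 CPM against 2.11, 3.05, 2.92 and 1.93 CPM, where the groups did not overlap (as in 4.48% of all genes). It was higher in 4 of 4 libraries, with a log2 fold change of 0.49 (SE 0.21, 95% interval 0.05 to 0.92) and an adjusted p of 1. Within run 2 alone (3 libraries each) its log2 ratio was 0.52. Between 50 and 5 MPa 0 members were called (0% of all genes), 0 had an unadjusted p under 0.05 (0.761%) and the groups did not overlap for P2rx7 alone (2.42% of all genes). For Piezo1, Piezo2, Pkd1, Pkd2, Trpm4 and Trpm7 the intervals at 50 MPa stayed between -0.49 and 0.52 on the log2 scale. A log2 change of 1 lay outside them. The interval of Kcnk2 was wider (-1.21 to 1.04). Its CV was 20.5% in metatarsals and 84.6% in hip caps, and the fit estimates 1 spread per gene over both tissues.

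The difference in response between the tissues was tested as an interaction. At 5 MPa 0 members were called (0.0188% of all genes), with 1 at an unadjusted p under 0.05 (11.2%), and at 50 MPa 0 (0.132%). At 5 MPa Piezo2 had the highest value, 1.14 (SE 0.40, unadjusted p = 0.0100, adjusted p = 0.333 by edgeR). At 50 MPa P2rx7 was -0.84 (SE 0.31, adjusted p = 0.154), Piezo2 0.92 (SE 0.39, adjusted p = 0.219), Trpm7 0.56 (SE 0.22, adjusted p = 0.189) and Pkd1 -0.55 (SE 0.22, adjusted p = 0.190), which were the 4 members with an unadjusted p under 0.05 (18.3% of all genes). These comparisons share the control libraries with those within each tissue.

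Related genes were counted in lists put together by function. The shares to set beside the counts of each list at 5 MPa are 18.8% of all genes higher and 19.1% lower in hip caps. Of 19 other TRP channels tested, 7 were higher and 4 lower in hip caps at 5 MPa, with a median log2 fold change of -0.06 against -0.08 for all genes. Trpm5, the taste-cell sister of Trpm4, was far lower in hip caps, at 1.91 against 48.2 CPM (-4.65, SE 0.17, adjusted p = 1.51e-13). Trpm3 was lower too (-1.90, SE 0.25), whereas Trpm6, the sister of Trpm7, was higher (3.19, SE 0.29). Trpa1 was higher at 2.53 against 0.0460 CPM (5.47, SE 0.76), but it was hardly detected in metatarsals. The size of that fold change is therefore uncertain. Trpv5 was at 0 CPM in every hip cap group and did not pass the filter. Of 28 other channels sensitive to stretch or volume, 9 were higher and 6 lower (median -0.31), among them Kcnk5 (4.49, SE 0.41) and the large calcium-activated potassium channel Kcnma1 (2.49, SE 0.17), at 188 against 33.5 CPM, on the higher side and Tmc7 (-3.25, SE 0.39) on the lower.

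Among P2 receptors, pannexins and connexins 7 of 16 were higher and 1 lower in hip caps at 5 MPa (median 0.37), against 18.8% and 19.1% of all genes. The pannexin Panx3, a channel of maturing chondrocytes that releases ATP, was 193 against 10.4 CPM (4.21, SE 0.48), the pyrophosphate transporter Ank 139 against 10.4 CPM (3.74, SE 0.17) and the connexin Gja1 190.5 against 83.6 CPM (1.19, SE 0.17), while the connexin Gjc1 was lower (-1.79, SE 0.15). Genes of store-operated entry, calcium release and pumps were split, with 13 of 27 higher and 7 lower (median 0.45). The sodium-calcium exchangers went apart, as Slc8a3 was higher (3.54, SE 0.26) and Slc8a1 (-3.72, SE 0.23) and Slc8a2 (-3.21, SE 0.34) lower, and the ryanodine receptor of skeletal muscle, Ryr1, was lower (-4.32, SE 0.38).

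Voltage-gated calcium channels were the list without a gene on the hip cap side. At 5 MPa 0 of 19 were higher and 12 lower (median -1.36), at 0 MPa 0 and 10 and at 50 MPa 0 and 9. Of all genes 18.8% were higher and 19.1% lower at 5 MPa, 14.1% and 15.9% at 0 MPa and 10.1% and 9.58% at 50 MPa. The T-type channels Cacna1g (2.74 against 144 CPM; -5.69, SE 0.35) and Cacna1h (3.00 against 44.8 CPM; -3.88, SE 0.23) were among them, and so were the skeletal muscle subunits Cacna1s (-4.96, SE 0.61) and Cacng1 (-5.22, SE 0.73), which go with the muscle markers given above. Of 30 targets and effectors of calcium and mechanical signals, 17 were higher and 8 lower (median 0.52), with the matrix protein Ccn2 at 663 against 31.4 CPM (4.40, SE 0.26) and Ptgs2 (4.24, SE 0.32) higher and Nfatc4 (-2.26, SE 0.21) and Jun (-1.79, SE 0.25) lower. Of 24 genes of the cilium, where the polycystins sit, 7 were higher and 4 lower (median 0.10), Ptch1 the most abundant of them (517 against 172 CPM; 1.59, SE 0.15).

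For pressure, 0 genes of these 7 lists were called in metatarsals or in hip caps at 5 MPa, where Trpm5 was -1.30 (SE 0.27, adjusted p = 0.0897). In hip caps at 50 MPa 9 of the 163 genes tested passed, 5.52%, close to the 5.18% of all genes, so the share is no result about these lists. The connexins Gja1 (1.16, SE 0.26, adjusted p = 0.0205) and Gjc1 (1.17, SE 0.26, adjusted p = 0.0193) rose, as did the volume-regulated anion channel subunit Lrrc8d (0.70, SE 0.19) and Nfatc3 (0.78, SE 0.21). The inositol trisphosphate receptor Itpr3 fell (-1.16, SE 0.26, adjusted p = 0.0198), and so did 4 of 24 cilium genes, all of the hedgehog pathway, Evc (-0.97, SE 0.18), Evc2 (-0.84, SE 0.19), Gli2 (-0.76, SE 0.18) and Kif7 (-1.14, SE 0.28). The comparison that holds these calls had 1102 called genes in the 22 libraries and 2 when all 24 were used. It had 1 without hip cap control 3, and 0 in the hip caps alone or in run 1 alone. In simulated data, described below, it gave 19 false calls. Recovered there were 9 of 100 genes changed 2-fold and 48 of 100 changed 4-fold. A call in this comparison therefore does not by itself show a change.

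The genes whose pattern over the 6 groups was most like that of each member were sought among 10849 genes with a mean of at least 5 CPM, by the root mean square (RMS) difference of the centred log2 group means. For Piezo1 they were Lrp1 (RMS 0.0294) and Pdia5 (0.0422), for Piezo2 Ttyh3 (0.0482) and Neto2 (0.0740) and for Trpv4 Zbtb20 (0.0549) and Xylt1 (0.0883). P2rx7 was nearest to C1rl (0.0987) and Fam20c (0.133), and Kcnk2 to Gmpr (0.0927) and Rhod (0.136). The members with a smaller range had closer neighbours, with Rnaseh2b at 0.0224 for Trpm4, Kdm3b at 0.0244 for Pkd2, Orc5 at 0.0278 for Trpm7, Parp2 at 0.0291 for Pkd1 and Fgd1 at 0.0563 for Trpc1. These are likenesses over 6 group means only.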

How the data were processed

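Reads were trimmed (Trim Galore 0.6.5), pseudoaligned with kallisto on GRCm39 and imported at gene level through tximport by the authors, who deposited estimated counts without normalization. They were rounded to whole numbers. Ribosomal RNA was depleted, and the methods state low RNA integrity. Gene names, transcript lengths and shared 31-base words came from GENCODE M21 (GRCm38), another annotation than the authors', which named 48845 of 52178 genes. The table held 0 columns of other samples.

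Counts were analysed in R 4.3.3 with edgeR 4.0.16 (TMM, filterByExpr with a minimum count of 10 over the 6 groups, robust quasi-likelihood fit, 14 residual degrees of freedom, terms for group, sequencing run and library type) over the 22 libraries the study used. Benjamini-Hochberg adjustment covered all 21283 genes of a comparison, and p-values measure the spread between separate cultures. The fit estimates 1 spread (dispersion) per gene over the libraries of both tissues. Metatarsal p-values and intervals therefore also carry the spread of hip caps, and the reverse. In fits of metatarsals alone 12 genes were called at 5 MPa and 6 at 50 MPa, where the main fit called 0. The run came from the colour strip of a figure, whose 9 and 15 libraries differ from the sizes the methods give for the sequencing kits, so it is uncertain. CPM of the 2 libraries left out were scaled over all 24. The likeness measure used a pseudocount of 0.5 CPM, and motifs were searched in the 250 bases before each RefSeq start. The members and lists were chosen with earlier results of these data known. Genes named beyond the members are the 3 highest and 3 lowest called log2 fold changes of a list in a comparison, the most abundant gene of a list, Trpv5 and Trpm5, and not all of them are printed. Precision is set by the counts of each library and the spread of replicates.

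Alternatives were DESeq2 1.42.0, limma 3.58.1 voom with weights by tissue, RLE factors, library sizes alone, all 24 libraries, no filter or at least 10 counts throughout, fewer batch terms, the replicate number as a block, the libraries of a tissue, a run or 5 MPa alone, and leaving out each library. Ratios of means between libraries of 1 run and library type were chosen after seeing the data. Simulated data with known changes were used to test the model. Of 100 genes changed 2-fold, 9 were recovered in hip caps and 21 in metatarsals at 50 against 0 MPa. Between the tissues at 5 MPa 33 were. Of 100 changed 4-fold, 48, 72 and 67 were recovered. False calls numbered 19, 0 and 7. The lack of a call for pressure therefore does not by itself show a lack of change. In hip caps at 50 against 0 MPa the 19 false calls stood beside 9 and 48 recovered genes. That is a larger share of false calls than the threshold allows. A call in that comparison therefore does not by itself show a change either.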

Additional observations from a re-analysis of the deposited data

Results flagged for a closer look

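A sample stood far from the others of its group in 2 of the 40 groups of 4 libraries examined, where chance flags about 1 in 20. Trpm7 was 165 CPM in metatarsal control library 1 against 105.7 to 114 CPM in the other 3 controls (ratio of gap to range 0.854, above Dixon's critical value). This library has the lowest total count of all, 4185241, and carries most of the weight of the metatarsals in the control comparison of tissues. It also enters hip caps at 5 against 0 MPa with a weight of 0.56, through the run term. Kcnk2 was 20.1 CPM in hip cap 5 MPa library 4 against 10.2 to 11.5 CPM in the other 3 (ratio 0.869). The hip cap groups at 0 and 50 MPa, with 3 libraries each, were not examined in this way.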

How the results depend on the processing

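Of the 22 tissue differences called among the members, 13 were called without any single library and under every alternative that tested the gene. Among them were all 7 at 5 MPa. Trpc1 was not tested under the filter of 10 counts in every library, as hip cap 50 MPa library 4 held 9. The counts of called members moved as follows. With all 24 libraries 4 members were called between the tissues at 50 MPa in place of 7 (8.41% of all genes in place of 19.7%). In hip caps at 50 against 0 MPa, where none was called, DESeq2 called 2 (11.5% of all genes), voom 1 (2.79%), the filter of 10 counts in every library 2 (15.0%) and the replicate block 1 (6.52%). In hip caps at 5 MPa, library type alone as the batch term and no batch terms each called 1 (Piezo2; 5.46% and 9.52% of all genes). Leaving out each library in turn gave 4 to 8 called members between the tissues at 0 MPa, 7 to 8 at 5 MPa, 4 to 7 at 50 MPa (the lowest counts without metatarsal control 1 and metatarsal 50 MPa library 4), 0 to 3 in hip caps at 50 against 0 MPa and 0 in the other comparisons. The 3 came without hip cap 5 MPa library 3, where 8.78% of all genes were called. The shares of all genes at the lowest counts between the tissues are given above. On library sizes alone 6 of 30 tissue values and 25 of 80 pressure and interaction values turned in sign. The 4 that were called in either fit were Pkd1 in controls to -0.37, Pkd2 in controls to -0.85 (adjusted p = 0.0480), Piezo1 at 50 MPa to -0.061 and Pkd1 at 50 MPa to -0.94 (adjusted p = 0.0495), while relative to the median of all genes they were 0.60, 0.12, 0.84 and -0.03. RLE factors split the called members at 5 MPa 4 higher to 4 lower, with 38.1% of all genes called. For called differences 661 of 709 alternative values kept direction and call, 46 lost the call and 2 turned. For those not called, 41 of 2900 passed and 234 changed sign without passing. The cause was not tested.

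Replicate numbers did not pair the libraries (50 residual correlations between equal numbers from -0.366 to 0.351, 13 over 0.1), and with the replicate block the called genes went from 4 to 176 in hip caps at 5 MPa and from 1102 to 1387 at 50 MPa. Depth limits Trpc1, Kcnk2 and P2rx7 most.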

Other observations

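The 2 hip cap libraries left out of the tests departed from their groups in the same members. Trpv4 was 43.7 CPM in hip cap control 4 and 48.5 CPM in hip cap 50 MPa library 2, below each of the 10 hip caps used (84.1 CPM or more), and so were Pkd2 (84.6 and 66.1 CPM against 134.5 CPM or more), Pkd1 (204 and 184 CPM against 290.3 CPM or more) and Trpm7 (59.2 and 56.9 CPM against 63.2 CPM or more). Trpm4 was low in the control alone (8.20 and 20.6 CPM against 14.3 CPM or more). Piezo2 was 39.4 CPM in the control, above all hip caps used, and 33.5 CPM at 50 MPa, above all but 1 at 35.7 CPM, and Piezo1 was 195 CPM in the control but 68.6 CPM at 50 MPa, where the hip caps used had at least 192 CPM. Trpc1 was 7.11 CPM in the control but 10.5 CPM at 50 MPa, above each of the hip caps used (7.81 CPM or less). P2rx7 (18.7 and 10.0 CPM) and Kcnk2 (12.7 and 11.1 CPM) stayed near the range of the others. The chondrocyte sums of these libraries, 10360 and 15890 CPM, were the lowest among hip caps.

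The spread of the members was wider in hip caps than in metatarsals for 9 of 10 genes by CV, P2rx7 being the exception (17.2% against 22.4%). The median gene-wise dispersion was 0.101 in hip caps and 0.0323 in metatarsals.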
